A study of Rattus norvegicus with 4 samples.

Results

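The sequences described here are 7 overlapping fragments named after tRNA-Glu, the transfer RNA that brings glutamate to the ribosome, out of 3129 sequences in the deposited raw table. All sequences of that table that share any identical stretch of 20 bases were joined into families, and the fragments are the family that holds novel_2845_x640. The fragment novel_128_x8598, which was to be included in any case, fell into the same family. The choice used the sequences and not their counts.

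Small RNA was sequenced after RNA immunoprecipitation (RIP), in which an antibody pulls down a protein with the RNA bound to it, from hippocampal CA1 tissue of adult male Wistar rats aged 7 to 8 weeks. The series is about RNAs bound to Piwil2, and the 4 libraries are named HPC0h (at 0 h, left unexplained by the labels), tGCI26h (transient global cerebral ischemia, at 26 h), Sham and IgG, the control for the antibody. The submitters speak of 3 replicates in each group. Only 1 library of each was analysed, and whether it pools animals is not stated. The IgG library's own name stands in the table, but the columns of the other 3 libraries match the labels only in part, by a time or an initial. The libraries held 830634 listed tags in HPC0h, 222511 in tGCI26h, 159215 in Sham and 668857 in IgG. With no replicates there is no test between conditions: each comparison is of 1 library with another, and the 95% intervals describe counting error alone, since PCR copies are not independent molecules.

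Transfer RNAs can be cut near the middle by ribonucleases such as angiogenin, which acts in stressed cells and cleaves in the anticodon loop. The pieces that carry the 5' end of tRNA-Glu and tRNA-Gly are among the tRNA fragments often seen in small RNA libraries, where they can be as long as piRNAs. PIWI proteins such as Piwil2 bind piRNAs, which in germ cells silence transposons. Primary piRNAs mostly begin with U, and secondary ones often carry A at base 10.

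The 7 sequences are printed 5' to 3' as DNA letters, since how they differ at their ends is the subject of several comparisons. The capitals mark the longest stretch that all of them hold, of 21 bases.
novel_2845_x640: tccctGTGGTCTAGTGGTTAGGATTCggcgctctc
novel_128_x8598: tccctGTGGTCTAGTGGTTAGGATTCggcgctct
novel_2573_x705: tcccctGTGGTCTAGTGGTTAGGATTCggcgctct
novel_4530_x412: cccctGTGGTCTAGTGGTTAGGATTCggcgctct
novel_11268_x173: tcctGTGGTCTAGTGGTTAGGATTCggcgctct
novel_12850_x154: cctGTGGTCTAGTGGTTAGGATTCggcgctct
rno_piR_001198: tccctgGTGGTCTAGTGGTTAGGATTC

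The 6 longer fragments were 32 to 35 nt long, and rno_piR_001198, the only fragment with a name in the style of a piRNA catalogue, was 27 nt long. These 6 differed in 3 features: whether a T came first, whether the run of C after it was 2, 3 or 4 bases long, and whether 1 more C stood at the 3' end. That last C was found in novel_2845_x640 alone. In the 6 longer fragments a single G followed the C run and its T, whereas in rno_piR_001198 a run of 2 G stood there. No other listed sequence of the raw table held the shared stretch of 21 bases, and the authors' normalized table held it in the same number of sequences, 7. The 40 lines of the raw table that were blanked for this work were not analysed here, so shares, ranks and counts of sequences cover the listed lines alone, and whether a longer form with both G stood among the blanked lines or was filtered out earlier is not known.

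The name tRNA-Glu is provisional. The RefSeq table of the rat assembly GRCr8 lists 30 tRNA-Glu genes among 766 tRNA genes, 20 with the anticodon CUC and 10 with UUC, each 72 bases long, but no tRNA sequence was used here, so no fragment was aligned to a gene and no coordinates are given. The last 3 bases of novel_2845_x640 are the letters of the anticodon CUC. All 7 fragments held the A box, the internal promoter consensus of tRNA genes, starting at base 5 to 8, and 5 of them held it at base 7, 8 or 9, near where it lies in a mature tRNA. Of all sequences in the raw table, 3.42% held the A box anywhere and 1.92% at base 7, 8 or 9 (searched as letters on the listed strand).

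The fragments together held 53044 tags in HPC0h, 31311 in tGCI26h, 21206 in Sham and 66271 in IgG. That was 6.39% of listed tags in HPC0h (95% Clopper-Pearson interval 6.33 to 6.44), 14.1% in tGCI26h (13.9 to 14.2), 13.3% in Sham (13.2 to 13.5) and 9.91% in IgG (9.84 to 9.98). The share was thus lowest in HPC0h, intermediate in the IgG control and highest in tGCI26h and Sham, the same order for each of the 2 most abundant fragments except that novel_128_x8598 was slightly higher in Sham than in tGCI26h.

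The fragment novel_2845_x640 had 30405 tags in HPC0h, 19284 in tGCI26h, 12597 in Sham and 40303 in IgG, which was 3.66%, 8.67%, 7.91% and 6.03% of listed tags in that order. Among all sequences it held rank 4 in HPC0h, rank 2 in both tGCI26h and Sham, and rank 3 in IgG. The fragment without its last C, novel_128_x8598, had 16422 tags in HPC0h, 8479 in tGCI26h, 6109 in Sham and 18755 in IgG, or 1.98%, 3.81%, 3.84% and 2.80% of tags. It ranked between 5 and 7 in every library, so these 2 fragments were among the most abundant sequences of the control too.

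The other 4 of the longer fragments were scarcer. With a run of 4 C and a T first, novel_2573_x705 had 2788 tags in HPC0h, 1603 in tGCI26h, 1137 in Sham and 3217 in IgG, and novel_4530_x412, the same without the T, had 1365, 784, 553 and 1657. With a run of 2 C and a T first, novel_11268_x173 had 1134 tags in HPC0h, 605 in tGCI26h, 450 in Sham and 1267 in IgG, and novel_12850_x154, the same without the T, had 926, 550, 358 and 1072. Each of these 4 had its lowest share in HPC0h and its next lowest in IgG. The catalogued rno_piR_001198 had 4 tags in HPC0h, 6 in tGCI26h and 2 in Sham and was not listed in IgG. The authors' normalized table, whose scaling is unknown, gives rno_piR_001198 values of 4 in HPC0h, 30 in tGCI26h, 24 in Sham and 5 in IgG. Whether the blank in IgG stands for reads is therefore not known. Its counts stayed under the minimum of 10 used for calls, and it is left out of the counts of calls below.

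**Figure D1:**
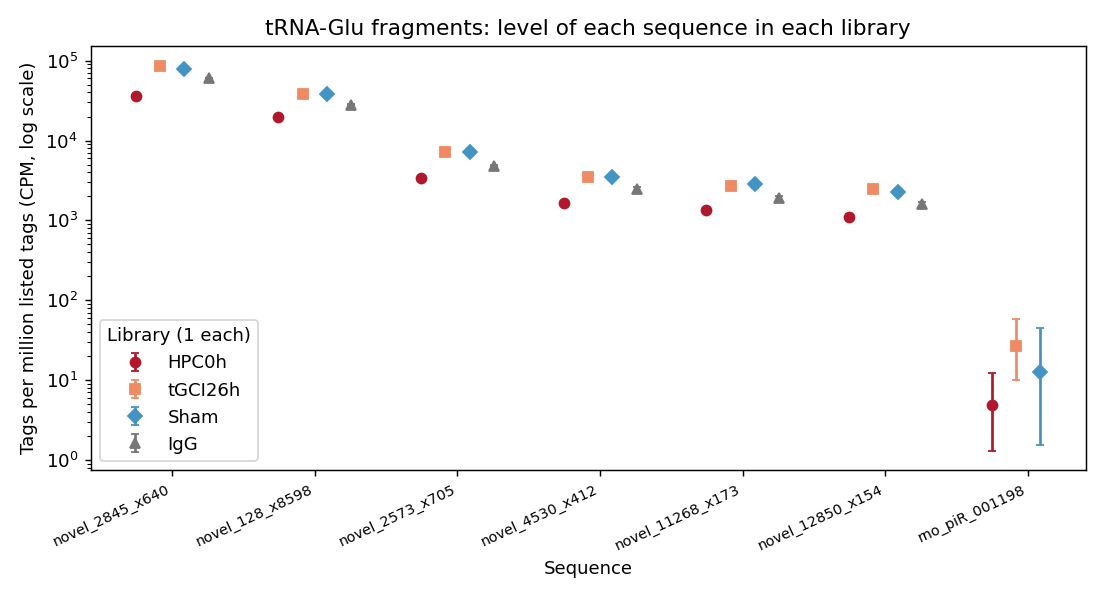
Level of each tRNA-Glu fragment in each library, as CPM (tag counts scaled to the library total) on a log axis, with 95% counting intervals (1 library per group, no point where a sequence was not listed). The 6 longer fragments had the same pattern, with HPC0h lowest and IgG next, and rno_piR_001198 lay far below them with at most 6 tags.

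HPC0h was set against tGCI26h to see how the fragments differed between these Piwil2 libraries. The summed fragments were 2.20-fold lower in HPC0h (95% interval 2.17 to 2.23). The most abundant, novel_2845_x640, was 2.37-fold lower (2.33 to 2.41), whereas novel_128_x8598 was 1.93-fold lower (1.88 to 1.98), and these intervals did not overlap. The 6 measured fragments lay between 1.93-fold and 2.37-fold lower. The rule for a call asked for 10 tags or more in 1 of the 2 libraries, a difference of 2-fold or more, and an interval without 1. By this rule 4 of 6 fragments were lower and 0 higher, where 21.0% of all 2036 measured sequences were lower and 21.0% higher. The median log2 ratio of the 6 fragments was -1.10, beside -0.03 for the 1802 measured sequences listed in both libraries. The fragments overlap in sequence, so 4 of 6 is not a count of independent sequences, and the ratios lie close to the 2-fold limit: novel_11268_x173, at 1.99-fold lower (1.80 to 2.20), and novel_128_x8598 fell just outside it, and novel_4530_x412, at 2.14-fold (1.96 to 2.34), just inside.

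These ratios are of shares, and the largest family in the table moved the other way. That family of 239 overlapping sequences held 52.9% of tags in HPC0h, 31.5% in tGCI26h, 33.2% in Sham and 41.4% in IgG. With totals taken without it the ratio of the fragments in HPC0h over tGCI26h was 0.660 in place of 0.454, and 0 fragments passed the 2-fold limit. With TMM factors the ratio was 0.536 and 1 fragment, novel_2845_x640, still passed. The fragments were thus lower in HPC0h than in tGCI26h under each of these scalings, by an amount that depended on the scaling.

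Against Sham the fragments in HPC0h were 2.09-fold lower as a sum (2.05 to 2.12). By fragment the values ran from 1.94-fold lower for novel_128_x8598 (1.88 to 2.00) to 2.16-fold lower for novel_2845_x640 (2.12 to 2.21). Here 5 of 6 were lower by the rule and 0 higher, where 15.9% of all 2020 measured sequences were lower and 25.4% higher. The median log2 ratio was -1.06, beside 0.17 for all 1570 measured sequences listed in both. With totals without the largest family the ratio was 0.681 in place of 0.479 and 0 fragments passed the limit.

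Between tGCI26h and Sham the fragments differed little. Their sum was 1.06-fold higher in tGCI26h (ratio interval 1.04 to 1.08). The fragment novel_2845_x640 had a ratio of 1.10 (1.07 to 1.12), and the intervals of the other 5 measured fragments included 1, from 0.962 for novel_11268_x173 (0.850 to 1.09) to 1.10 for novel_12850_x154 (0.961 to 1.26). By the 2-fold rule 0 of 6 differed, where 41.1% of all 1366 measured sequences did, 27.2% higher and 13.9% lower. The ratio of the sum was 0.916 with TMM factors, so even the direction of this small difference rested on the scaling. The HPC0h library is shared by the 2 comparisons before this one, and Sham and tGCI26h each enter 2 of the 3.

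**Figure D2:**
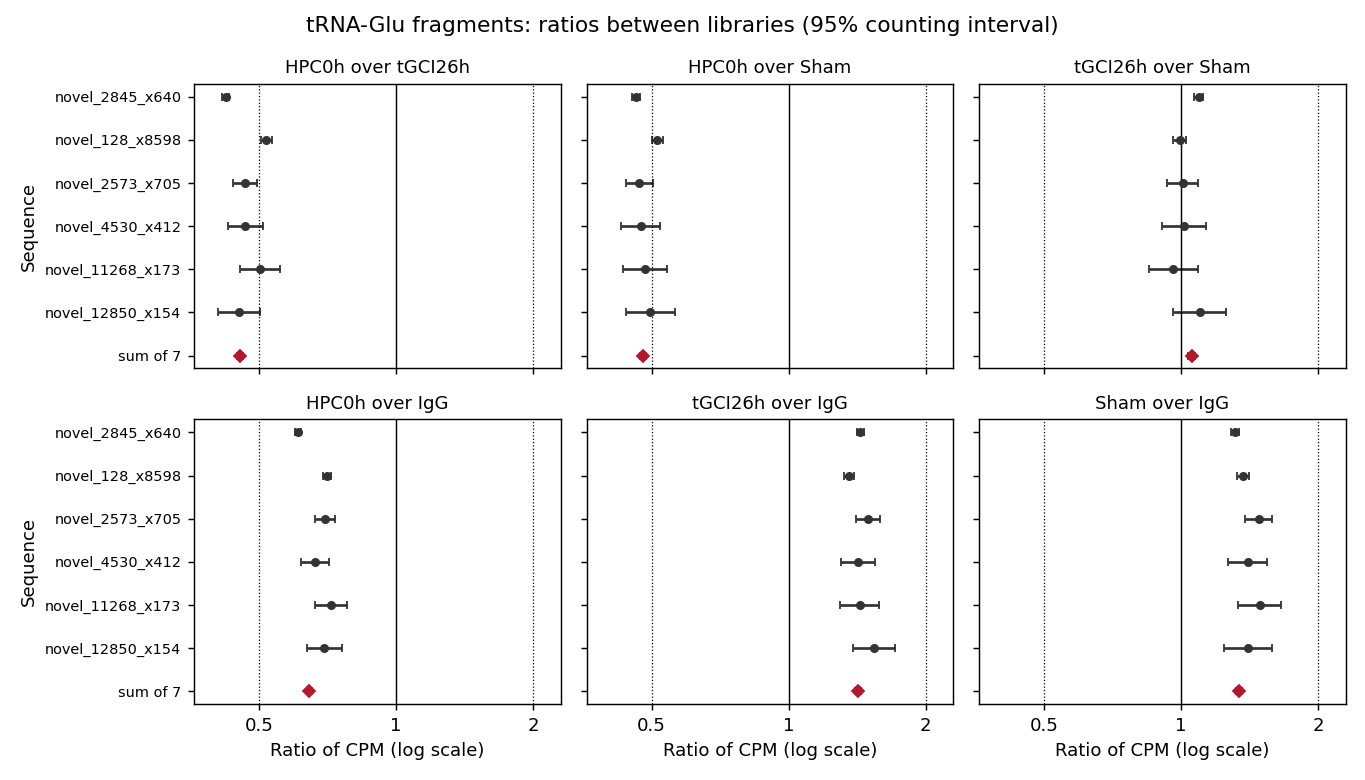
Ratio of CPM between libraries for the 6 measured tRNA-Glu fragments (black) and for the sum of all 7 (red), on a log axis with 95% counting intervals. Solid lines mark a ratio of 1 and dotted lines the 2-fold limit. The fragments lie between 0.422 and 0.519 in HPC0h over tGCI26h, between 0.463 and 0.515 in HPC0h over Sham, and between 0.962 and 1.10 in tGCI26h over Sham.

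The IgG library served as the background. Each Piwil2 library was compared with it by share of listed tags, and how much RNA each antibody recovered is not known from shares. The summed fragments stood at a ratio of 0.645 in HPC0h over IgG (0.637 to 0.652), 1.42 in tGCI26h over IgG (1.40 to 1.44) and 1.34 in Sham over IgG (1.32 to 1.37). All 6 measured fragments were below the control in HPC0h, with ratios from 0.607 to 0.721, and above it in the other Piwil2 libraries, from 1.36 to 1.54 in tGCI26h and from 1.31 to 1.49 in Sham. None reached the 2-fold limit against IgG in any library, where 34.9% of all 2159 measured sequences did in HPC0h (17.8% higher, 17.1% lower), 36.1% of 1961 in tGCI26h (16.6% higher, 19.5% lower) and 41.0% of 1919 in Sham (12.5% higher, 28.6% lower). The median log2 ratios of the fragments were -0.52, 0.52 and 0.49 in that order, beside -0.11, -0.11 and -0.25 for all measured sequences listed in both libraries of a pair. These 3 comparisons share the IgG library. The labels do not say which animals it came from.

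The 7 fragments were then compared with each other inside each library, since a ratio of 2 fragments does not depend on the library total. Of the 5 ratios computed, that for the C at the 3' end differed most between libraries. There were 1.85 tags of novel_2845_x640 for each tag of novel_128_x8598 in HPC0h (1.82 to 1.89), 2.27 in tGCI26h (2.22 to 2.33), 2.06 in Sham (2.00 to 2.13) and 2.15 in IgG (2.11 to 2.19). The form with the C was thus relatively least frequent in HPC0h and most frequent in tGCI26h. The ratio was 1.23-fold lower in HPC0h than in tGCI26h (exact conditional interval 1.19 to 1.27), 1.11-fold lower in HPC0h than in Sham (1.07 to 1.15) and in tGCI26h 1.10-fold that in Sham (1.06 to 1.15). In tGCI26h it was 1.06-fold higher than in IgG (1.03 to 1.09) and in HPC0h 1.16-fold lower than in IgG (1.13 to 1.19). As a share of all 7 fragments, novel_2845_x640 made up 57.3% in HPC0h, 61.6% in tGCI26h, 59.4% in Sham and 60.8% in IgG, and novel_128_x8598 31.0%, 27.1%, 28.8% and 28.3%. The divisor novel_128_x8598 thus had its largest share in HPC0h, where novel_2845_x640 had its smallest. With 1 library a group these small differences pass counting error, but how much 2 libraries of 1 group would differ is not known. The lower ratio in HPC0h than in tGCI26h was not particular to this pair. Outside the 7 fragments, 51 pairs differ by a C at the 3' end and had at least 10 tags of both members in every library. Among them 38 (74.5%) were lower in HPC0h than in tGCI26h, with medians of 2.62 and 3.79.

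For the runs of 4 C and of 2 C, the 5' ends differed between libraries by no more than counting error. Fragments with a run of 3 C were listed only with a T first, so their 5' ends could not be compared in this way. They held most tags of the fragments, from 88.2% in Sham to 89.1% in IgG. For the run of 4 C, the form with a T first outnumbered the form without it 2.04 to 1 in HPC0h (1.91 to 2.18), 2.04 in tGCI26h (1.88 to 2.23), 2.06 in Sham (1.86 to 2.28) and 1.94 in IgG (1.83 to 2.06). For the run of 2 C the same ratio was 1.22 in HPC0h (1.12 to 1.34), 1.10 in tGCI26h (0.978 to 1.24), 1.26 in Sham (1.09 to 1.45) and 1.18 in IgG (1.09 to 1.28). For neither run did the interval of the ratio between any pair of libraries exclude 1. For HPC0h over tGCI26h that interval was 0.896 to 1.11 for the run of 4 and 0.961 to 1.29 for the run of 2. In tGCI26h over Sham the ratio for the run of 2 was 0.875 (0.727 to 1.05). These pairs had far fewer tags than the pair at the 3' end, so differences as large as those seen there could go unnoticed.

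The length of the C run was close to constant. Fragments with a run of 3 C and 1 G made up 88.3% of the tags of the 7 in HPC0h, 88.7% in tGCI26h, 88.2% in Sham and 89.1% in IgG. A run of 4 C made up 7.83%, 7.62%, 7.97% and 7.35% in the same order, and a run of 2 C 3.88%, 3.69%, 3.81% and 3.53%. Measured against novel_128_x8598, which ends at the same base, novel_2573_x705 with 1 more C was 1.11-fold lower in HPC0h than in tGCI26h (1.04 to 1.19) and 1.10-fold lower than in Sham (1.02 to 1.18). The divisor novel_128_x8598 itself had its largest share of the 7 in HPC0h. As a share of the 7, novel_2573_x705 was not lower in HPC0h than in tGCI26h. It made up 5.26% in HPC0h, 5.12% in tGCI26h and 5.36% in Sham, with overlapping intervals. For novel_11268_x173 with 1 C fewer the ratios between HPC0h and tGCI26h, 0.968 (0.873 to 1.07), and between HPC0h and Sham, 0.937 (0.836 to 1.05), had intervals that included 1.

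**Figure D3:**
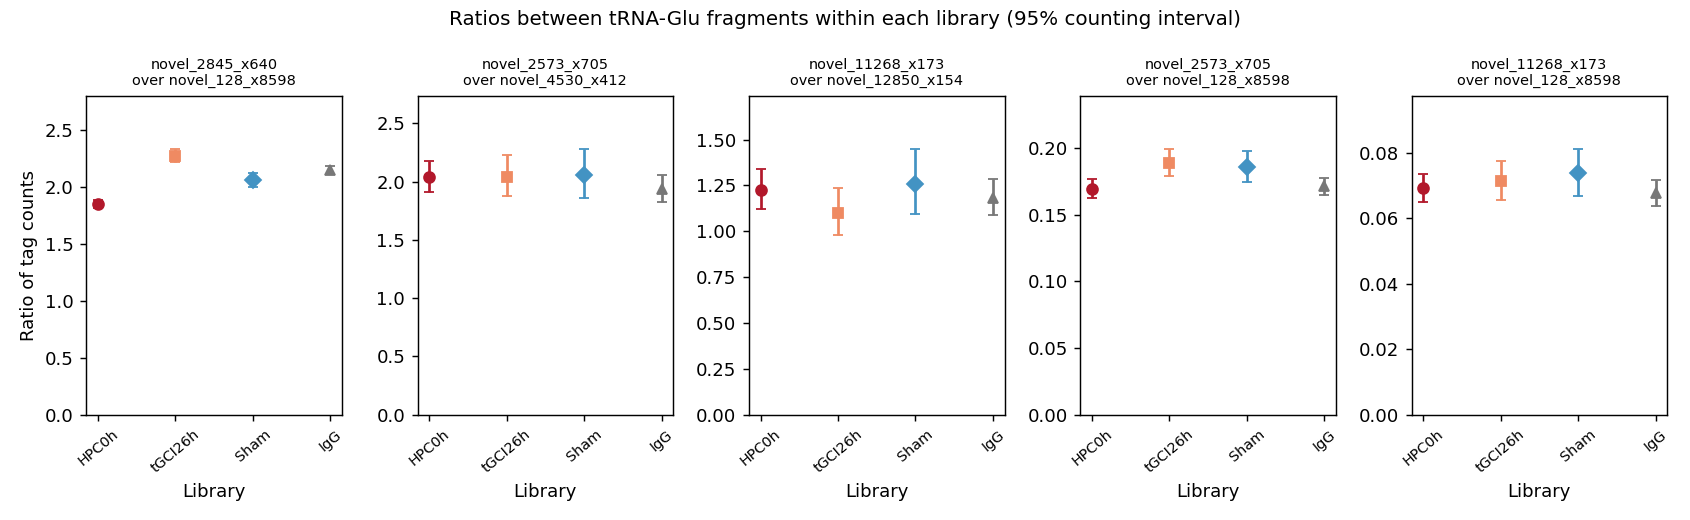
Ratio of tag counts between pairs of tRNA-Glu fragments in each library, with 95% counting intervals. From left to right the first fragment of a pair differs from the second by 1 base at its 3' end, by 1 base at its 5' end (for runs of 4 C and of 2 C), and by a C run of 4 against 3 and of 2 against 3. Only in the first panel do all 3 Piwil2 libraries have intervals apart from one another, from 1.85 in HPC0h to 2.27 in tGCI26h. The pair in that panel also had the most tags.

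In the features by which piRNAs are recognised, 5 of the 7 fragments began with T and none had A at base 10. The fragments overlap in sequence, so these are not counts of independent sequences. The fragments that began with T held 38.4% of all tags that began with T in HPC0h, 49.5% in tGCI26h, 43.6% in Sham and 39.8% in IgG. Tags that began with T were 15.9% of all listed tags in HPC0h, 27.2% in tGCI26h, 29.2% in Sham and 23.9% in IgG. How many of all listed sequences began with T or had A at base 10 was not counted. No sequence of the raw table began with 10 bases complementary to the first 10 of a fragment, and none held a stretch of 16 bases complementary to one. Among tags of 33 nt or longer the fragments held 6.39% in HPC0h, 14.5% in tGCI26h, 13.9% in Sham and 10.3% in IgG. The protocol selected inserts near 30 nt, so shorter and longer forms of these fragments may be under-represented.

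The family nearest in sequence was used as a first comparison. It was picked after the sequences had been seen, by the fewest single-base edits to a longer fragment, and its 11 sequences lay 8 to 10 edits away. Its most abundant sequence is printed with the 11-base stretch it shares with a tRNA-Glu fragment in capitals.
novel_1297_x1295: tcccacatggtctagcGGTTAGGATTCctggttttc
This family was scarce, with 421 tags in HPC0h, 280 in tGCI26h, 280 in Sham and 578 in IgG, so that the tRNA-Glu fragments outnumbered it 126 to 1 in HPC0h, 112 to 1 in tGCI26h, 75.7 to 1 in Sham and 115 to 1 in IgG. In HPC0h over tGCI26h its ratio was 0.403 (0.345 to 0.470), and the ratio of the tRNA-Glu fragments over it was 1.13-fold higher with an interval that included 1 (0.965 to 1.31). In HPC0h over Sham the nearest family was at 0.288 (0.247 to 0.336), and the tRNA-Glu fragments relative to it stood 1.66-fold higher in HPC0h (1.42 to 1.94). In tGCI26h over Sham the nearest family was at 0.716 (0.604 to 0.847), and the tRNA-Glu fragments relative to it were 1.48-fold higher in tGCI26h (1.25 to 1.75). Over IgG the nearest family stood at 0.587 in HPC0h (0.516 to 0.666), 1.46 in tGCI26h (1.26 to 1.68) and 2.04 in Sham (1.76 to 2.35), so that only in Sham did it lie further above the control than the tRNA-Glu fragments by counting error (ratio of ratios 0.661, 0.571 to 0.765).

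The second comparison was with all other sequences that hold the A box starting at base 7, 8 or 9, a match of letters that does not by itself make them tRNA fragments. There were 55, in 24 families, and the nearest family, which may itself come from tRNA-Glu, overlaps them. The leading sequences of their most abundant families, apart from novel_1297_x1295 printed above, are given with the A box in capitals, to show what the tRNA-Glu fragments were set beside.
rno_piR_005567: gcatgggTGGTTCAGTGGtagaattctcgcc
rno_piR_005901: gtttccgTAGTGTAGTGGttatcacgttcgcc
novel_18422_x113: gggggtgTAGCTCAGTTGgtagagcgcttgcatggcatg
novel_7583_x251: gggtctgTAGCTCAGTCGgttagagcac
Together the 55 had 7958 tags in HPC0h, 6744 in tGCI26h, 7448 in Sham and 6398 in IgG. They were 3.16-fold lower in HPC0h than in tGCI26h (3.06 to 3.27) and 4.88-fold lower than in Sham (4.73 to 5.04), and by the 2-fold rule 34 of 43 were lower and none higher against tGCI26h (21.0% lower and 21.0% higher among all measured sequences) and 26 of 37 lower and none higher against Sham (15.9% lower and 25.4% higher among all). The tRNA-Glu fragments were lower in HPC0h by less: relative to these 55 their level in HPC0h was 1.44-fold that in tGCI26h (1.39 to 1.49) and 2.34-fold that in Sham (2.26 to 2.43). Those 2 values do not depend on the library totals. In HPC0h, Sham and IgG, but not in tGCI26h, most of these tags belonged to 1 family, that of rno_piR_005567, whose 3 sequences with a 5' A box held 5587 tags in HPC0h, 3217 in tGCI26h, 5890 in Sham and 4828 in IgG. In HPC0h over tGCI26h that family was at 0.465 (0.445 to 0.486), where the ratio of the tRNA-Glu fragments to it was 0.975 (0.932 to 1.02), an interval that included 1. In HPC0h over Sham it was at 0.182 (0.175 to 0.189), and the tRNA-Glu fragments relative to it stood at 2.64 (2.53 to 2.75). The values of the 55 against Sham thus rest mostly on this family.

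The tRNA-Glu fragments stood closer to the control than the sum of these sequences did in tGCI26h and Sham. The 55 were 3.17-fold above IgG in tGCI26h (3.06 to 3.28) and 4.89-fold in Sham (4.73 to 5.06), and 34 of 42 and 27 of 34 measured sequences were higher than IgG by the 2-fold rule, against 16.6% and 12.5% of all measured sequences. Relative to them the tRNA-Glu fragments were 2.23-fold lower in tGCI26h than in IgG (2.15 to 2.31) and 3.64-fold lower in Sham than in IgG (3.51 to 3.78). In HPC0h the 55 stood level with IgG, at a ratio of 1.00 (0.969 to 1.04), with 8 of 34 higher and 4 lower (17.8% and 17.1% among all measured sequences), and the tRNA-Glu fragments relative to them stood at 0.644 of their IgG value (0.621 to 0.666). The tRNA-Glu fragments were thus the more abundant group in every library and in each Piwil2 library stood lower over the control than these 55 as a sum. The families within the 55 differed widely. In tGCI26h over IgG that of rno_piR_005567 stood at 2.00 and that of novel_7583_x251 at 46.9. The nearest family, which overlaps the 55, stood at 1.46 there. The ratio of the tRNA-Glu fragments to the nearest family was 0.975 (0.844 to 1.13), an interval that included 1.

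**Figure D4:**
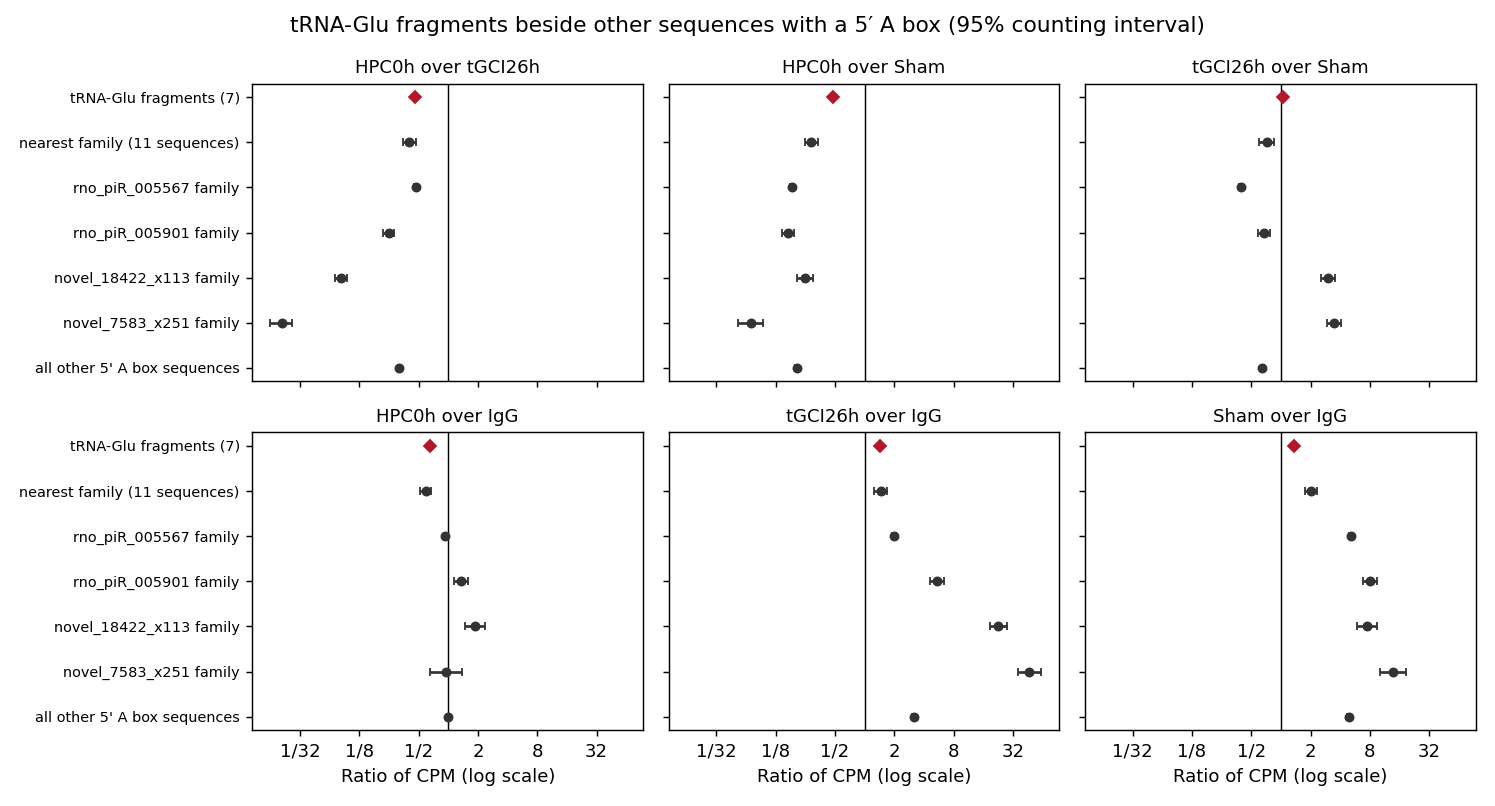
Ratio of CPM between libraries for the sum of the 7 tRNA-Glu fragments (red), the nearest family, the A box sequences of the families of rno_piR_005567, rno_piR_005901, novel_18422_x113 and novel_7583_x251, and all 55 other sequences with a 5′ A box (black), on a log axis with 95% counting intervals. Over IgG the tRNA-Glu fragments lie at 1.42 in tGCI26h and 1.34 in Sham, left of the sum of the 55 at 3.17 and 4.89.

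Among 152 sequences outside the 7 with at least 100 tags in every library, those with the pattern most like the summed fragments were sought by the distance between log2 profiles centred on their own mean, over 4 libraries. The 5 nearest were novel_2101_x858, novel_2270_x795, novel_9668_x200, novel_3352_x548 and novel_14487_x139, at distances of 0.11, 0.18, 0.24, 0.26 and 0.29, where the 6 longer fragments themselves lay 0.05 to 0.15 from their sum. The nearest, novel_2101_x858, had 831 CPM (tags scaled to the library total) in HPC0h, 1937 in tGCI26h, 1784 in Sham and 1233 in IgG. These 5 belong to families of 14 and 74 overlapping sequences, and none held an A box. A profile over 4 libraries rests on few points, and all sequences share the same 4 totals.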

How the data were processed

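Small RNA was ligated to adaptors, copied to cDNA, amplified, size-selected at about 150 bp (inserts near 30 nt) and read for 50 cycles on an Illumina HiSeq, per the labels' protocols. Among the tools in the submitters' processing notes are cutadapt 1.9.3 and Novoalign 3.02.12, whose roles are unstated. No genome build was named in the sources used here. All comparisons used the raw tag counts that the authors deposited, 1 row per sequence. Values start at 2, and blanks were set to 0. The authors' deposited normalized values, whole numbers of unknown scaling, were handled as a score and used as an alternative. In preparing the data, 40 raw and 46 normalized lines were blanked.

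Counts were scaled to each library's total of listed tags (CPM), without division by length because a tag is the whole sequence. Ratios of CPM have exact 95% Clopper-Pearson intervals, and ratios of ratios have exact conditional ones (R 4.3.3). TMM factors are from edgeR 4.0.16, and other steps used Python 3.11.15 with scipy 1.17.1. No test was made, as each group has 1 library. The calling step was tested on simulated counts. Alternatives were TMM factors, totals without the largest family, the normalized table, other joining lengths, count minimums and fold limits, and leaving out each of the 2 leading fragments. The text names every fragment, the leading sequence of each of the 5 most abundant families with a 5' A box, and the 5 sequences of most similar profile. Fragments, lists and rules were chosen with earlier results of these data known, and the nearest family and the 3' end pairs after these values were seen.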

Additional observations from a re-analysis of the deposited data

Results flagged for a closer look

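One sequence related to these fragments stands only in the authors' normalized table, which served as an alternative and not for the comparisons of the report. It is novel_20394_x105, which shares 20 bases or more with the family nearest to the tRNA-Glu fragments. Its normalized value was 3 in HPC0h, 8 in tGCI26h, 9 in Sham and 2 in IgG. These values lie near the floor of that table. There rno_piR_001198 had 5 in IgG without a listed tag, and 24 in Sham for 2 tags. The higher values than in IgG are therefore not read as enrichment. No group held enough libraries to look for a library that stands apart.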

How the results depend on the processing

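The ratios of the summed fragments kept their direction in 40 of 42 combinations of comparison and alternative setting. Both exceptions were in tGCI26h over Sham, with TMM factors and without the most abundant fragment. Values are given here for HPC0h over tGCI26h, HPC0h over Sham, tGCI26h over Sham, HPC0h over IgG, tGCI26h over IgG and Sham over IgG, in that order. TMM factors gave 0.536, 0.491, 0.916, 0.711, 1.33 and 1.45. Totals without the largest family gave 0.660, 0.681, 1.03, 0.803, 1.22 and 1.18. Without the most abundant fragment the ratios were 0.504, 0.504, 0.9996, 0.702, 1.39 and 1.39. Without novel_128_x8598 they were 0.430, 0.465, 1.08, 0.621 and 1.44, and Sham over IgG stayed within its interval. The authors' normalized table as given had 0.495, 0.530, 0.664, 1.34 and 1.25, and tGCI26h over Sham stayed within its interval. Joining families by 16 bases gave the same 7 fragments, and by 24 bases 6, with no ratio outside its interval. Both joining lengths count among the 42 combinations, but they left out at most the scarce rno_piR_001198 and so could hardly change a direction.

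The count of fragments past the limit in HPC0h over tGCI26h, 4 in the report, was 1 with TMM factors and 0 with totals without the largest family, and in HPC0h over Sham it was 0 with those same totals, in place of 5. A limit of 1.5-fold called 2 fragments lower in HPC0h than in IgG and 1 higher in tGCI26h than in IgG, and without a count minimum 1 fragment (rno_piR_001198, not listed in IgG) was higher in tGCI26h than in IgG, in place of 0. The share of novel_2845_x640 among the fragments without novel_128_x8598 was 83.0% in HPC0h, 84.5% in tGCI26h, 83.4% in Sham and 84.8% in IgG, since fewer fragments are summed. With the A box anywhere in the sequence, 27 other sequences were called in tGCI26h over Sham in place of 17, and 21 in HPC0h over IgG in place of 12. No paired analysis was possible because there is 1 library per group. Apart from where fewer fragments are summed, the cause of these shifts was not tested. Depth limits rno_piR_001198 most, with at most 6 tags. It also limits calls near 2-fold: the intervals of novel_4530_x412 and novel_12850_x154 in HPC0h over tGCI26h, and of 4 of the 5 called fragments in HPC0h over Sham, held the 2-fold limit.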

Other observations

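The 3' end was looked at beyond the tRNA-Glu fragments after its ratio had been seen. In the nearest family, 2 further pairs differ by a C at the 3' end and were listed in all 4 libraries. For novel_1297_x1295 over novel_1462_x1171 the ratio was 2.33 in HPC0h, 5.21 in tGCI26h, 2.50 in Sham and 4.88 in IgG, and for novel_2062_x871 over novel_2909_x626 it was 1.21, 7.00, 2.18 and 2.31 in the same order. These pairs and that of novel_2845_x640 over novel_128_x8598 had the same order of libraries, with HPC0h lowest, then Sham, then IgG, and tGCI26h highest, though the scarcest of these counts was 4 tags. No intervals were computed for the pairs of the nearest family, and some of their values lie close, such as 2.33 and 2.50, or 2.18 and 2.31.

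Across the raw table outside the tRNA-Glu fragments, 196 pairs differ by 1 base at the 3' end and had at least 10 tags of both members in every library. They include pairs of the nearest family, such as novel_1297_x1295 over novel_1462_x1171. The median ratio of the longer over the shorter was 2.28 in HPC0h, 2.40 in tGCI26h, 2.3 in Sham and 2.15 in IgG, and the ratio was lower in HPC0h than in tGCI26h in 121 of 196 pairs (61.7%). Among the 51 pairs in which the added base was C the medians were 2.62, 3.79, 3.28 and 2.52, and 38 (74.5%) were lower in HPC0h than in tGCI26h. In both sets of medians IgG was lowest, so the order of libraries given above did not hold there. Many of the 196 pairs come from the same families, so they are not independent.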
